A study of Mus musculus with 4 samples.

Results

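Of the 30041 genes that each deposited file lists, 10 are described here. They are Sdc1, which encodes the plasma cell marker CD138, the receptors for the B cell survival factors BAFF and APRIL (Tnfrsf13c, Tnfrsf13b and Tnfrsf17), Cd40, Cd27 and its ligand gene Cd70, Fas, Tnfrsf9 and Tnfrsf1b. The members were taken by gene symbol, and each of the 10 had 1 row in all 4 files. RNA was measured in splenic B cells from C57BL/6 mice after 72 h of culture with LPS, a bacterial cell wall component that stimulates B cells through Toll-like receptor 4. The B cells had been enriched by depleting cells that bear CD43, CD4 or Ter-119. There were 2 control and 2 cKO samples. Nfkbiz encodes IκB-ζ, a nuclear IκB protein that regulates NF-κB target genes. Mice of both groups carried Nfkbiz fl/Δ, so 1 Nfkbiz allele was flanked by loxP sites and the other already deleted. Only cKO mice also carried Mb1cre/+, in which Cre is expressed from the Cd79a gene in the B lineage. Deletion of Nfkbiz in B cells and the Cre allele itself therefore cannot be told apart. The age of the mice was not given in the sources used here, apart from a label "passage" with the entry 8-12. The labels give LPS as 20 mg/ml, and the study's methods give the same number in μg/ml.

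CD138 is a transmembrane proteoglycan that carries heparan sulfate chains. Its surface level is used to recognize cells on the way from activated B cell to plasma cell. BAFF-R (Tnfrsf13c) binds BAFF and sustains mature B cells, TACI (Tnfrsf13b) binds BAFF and APRIL and takes part in T cell-independent antibody responses, and BCMA (Tnfrsf17) supports long-lived plasma cells. CD40 receives the T cell signal for T cell-dependent responses. All of these except CD138 belong to the TNF receptor superfamily, whose members pass signals through TRAF adaptors or, as in Fas, through a death domain.

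Each value is a deposited RNA-seq score, printed to 5 decimals and without a stated unit. Low scores multiplied by exon length fell near whole multiples of a step, as a score of reads per exon base scaled to library size would. The step was fitted to these same low values, so their closeness to it is no independent check. In 75.4 to 82.1% of low values the product lay within 0.2 of a whole multiple. Under that reading the libraries held about 17500000 to 19900000 reads, and the read numbers given below share this inference. Scores are therefore compared between genes as levels per length. Changes are log2 fold changes of score + 0.0001, cKO minus control, from limma over the 9727 genes that reached 0.005 in any sample. Adjusted p-values are Benjamini-Hochberg values over those genes. The targeted gene Nfkbiz scored 0.02409 (control 1), 0.02264 (control 2), 0.01270 (cKO 1) and 0.01156 (cKO 2) (log2 fold change -0.94, standard error 0.0956, limma adjusted p = 0.0282, and 0.203 in a fit without filter). Control 2 stood apart in the MHC class II pseudogene H2-Ea-ps, at 1.15 against 0.00008 in control 1 and 0 in both cKO samples. Whether control 2 shared the genetic background of the other samples was not tested. Without control 2 the log2 fold changes of the members past the filter were 0.80 for Sdc1, -0.22 for Tnfrsf13c, -0.64 for Tnfrsf13b, -0.40 for Cd40, 0.77 for Cd70, -0.28 for Fas and 0.14 for Tnfrsf1b, each in the direction of the fit to all 4 samples. The groups did not overlap in these members, so leaving out a sample could not reverse a direction.

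None of the 10 genes was called different between the groups. Of the 7 members past the score filter, 0 had a limma adjusted p under 0.05, against 2.07% of the 9727 genes tested. At an unadjusted p under 0.05 there were 4 (Tnfrsf13b, Tnfrsf13c and Cd40, lower in cKO samples, and Sdc1, higher), against 22.3% of genes tested. Cd27, Tnfrsf9 and Tnfrsf17 did not reach the filter. In the fit without filter, over 21582 genes, 0 of the 10 had an adjusted p under 0.05 and 5 an unadjusted p under 0.05, against 14.8% of genes. Sdc1 and Cd70 passed the filter through cKO samples alone, since both of their control scores lay under 0.005, so that their passing is not independent of their direction. In the 7 members past the filter both cKO scores lay on 1 side of both control scores, which 58.2% of the genes past the filter also showed. Among all 10 it was 9 (4 lower and 5 higher in cKO samples), against 44.9% of the 21582 genes. With 2 samples a group, the smallest two-sided p of an exact permutation test is 0.33. The labels do not say whether the 2 samples of a group came from separate mice, so the p-values measure the spread between these samples.

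**Figure D1:**
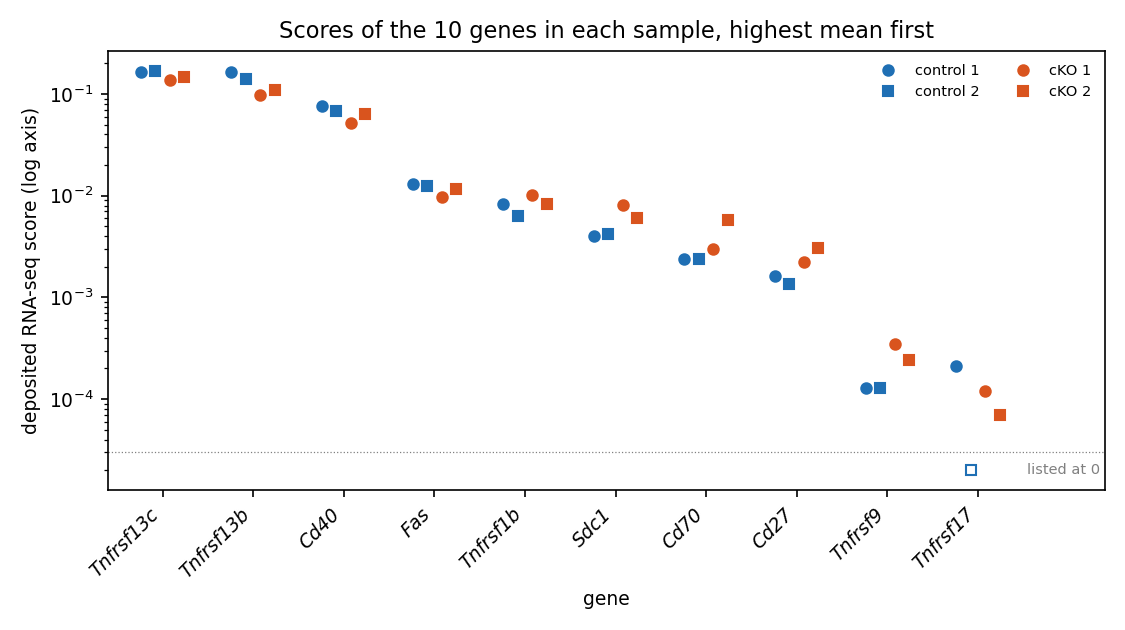
Deposited score (log axis, no stated unit) of each of the 10 genes in control 1, control 2, cKO 1 and cKO 2, ordered by the mean over the 4 samples. Open symbols mark a score listed at 0. Tnfrsf13c, Tnfrsf13b, Cd40 and Fas sit lower in both cKO samples than in both control samples, and Tnfrsf1b, Sdc1, Cd70, Cd27 and Tnfrsf9 sit higher.

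Promoter sequence was available for 8 of the members, as windows from 250 bases before to 50 bases after a RefSeq transcription start on GRCm38.p6. Cd40 and Cd70 had no window. The windows were searched on both strands for GGGNNNNNCC, a loose form of the κB site bound by NF-κB, the factor with which IκB-ζ associates. This motif was present in 50.8% of all 32851 windows of that length, and a stricter NF-κB consensus in 4.51%. Among the member windows, only those of Tnfrsf17 and of the first of the 2 starts of Tnfrsf9 lacked the loose motif. Sdc1 and Tnfrsf13b are shown because they are the members with the smallest unadjusted p in each direction, and the second of the 2 starts of Tnfrsf9 because it was the only member window with a match to the stricter consensus. Capitals mark matches to the loose motif, and overlapping matches run together.

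Sdc1 (GRCm38.p6, chr12:8771146-8771445, plus strand): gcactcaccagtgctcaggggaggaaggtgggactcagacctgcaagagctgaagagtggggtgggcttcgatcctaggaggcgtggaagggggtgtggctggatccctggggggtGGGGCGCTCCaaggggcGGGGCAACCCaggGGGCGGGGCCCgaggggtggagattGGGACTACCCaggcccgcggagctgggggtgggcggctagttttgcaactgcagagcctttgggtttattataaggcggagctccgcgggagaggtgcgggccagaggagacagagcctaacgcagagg
Tnfrsf13b (GRCm38.p6, chr11:61126505-61126804, plus strand): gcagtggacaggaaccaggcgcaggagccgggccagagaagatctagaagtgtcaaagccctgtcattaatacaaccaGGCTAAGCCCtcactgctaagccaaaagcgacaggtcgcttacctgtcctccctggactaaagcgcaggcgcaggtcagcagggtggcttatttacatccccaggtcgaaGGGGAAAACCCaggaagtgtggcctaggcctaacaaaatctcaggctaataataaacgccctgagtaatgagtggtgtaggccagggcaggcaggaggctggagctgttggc
Tnfrsf9 (GRCm38.p6, chr4:150927749-150928048, plus strand): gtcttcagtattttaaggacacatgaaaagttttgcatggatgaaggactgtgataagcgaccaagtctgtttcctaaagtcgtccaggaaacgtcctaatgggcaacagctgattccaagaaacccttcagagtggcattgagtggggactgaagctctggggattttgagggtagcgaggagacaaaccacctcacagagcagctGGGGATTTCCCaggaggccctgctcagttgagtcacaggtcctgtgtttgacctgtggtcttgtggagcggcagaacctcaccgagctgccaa

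The Sdc1 window was the most GC-rich of the 9 member windows, with 66.3% G and C against a median of 52.7% over all windows. Its matches to the loose motif began 134, 117, 104, 103 and 79 bases before the start. In Tnfrsf13b the matches began 172, 62 and 61 bases before the start. The Tnfrsf9 matches began 43 and 42 bases before the start, and both fitted the stricter consensus. These are matches of letters only, and binding was not measured in these samples.

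Markers of other cell types were also read, because T cells, NK cells and myeloid cells express Cd27, Cd70, Tnfrsf9, Tnfrsf1b or Sdc1. The 10 T cell markers summed to 0.03482 and 0.04656 in control and 0.07334 and 0.06775 in cKO samples, nearly all of it from Lck (0.03182 and 0.04373 against 0.06903 and 0.06355, limma adjusted p = 0.0734). The next highest, Cd8b1, scored 0.00149 to 0.00225. Below these, Thy1 was higher in both cKO samples (0.00003 in both control samples against 0.00069 and 0.00085). So were Cd3d (0.00013 and 0.00033 against 0.00034 and 0.00038) and Cd3e (0 and 0.00004 against 0.00007 and 0.00020). Cd3g was higher in both as well (0.00019 and 0.00026 against 0.00060 and 0.00039). Cd28 was lower in both (0.00033 and 0.00032 against 0.00021 and 0.00013). Cd4 and Trat1 were listed at 0 in both cKO samples and in control 1, and scored 0.00006 and 0.00002 in control 2. The 7 NK cell markers summed to 0.0006 and 0.00054 in control and 0.00203 and 0.00158 in cKO samples, with Nkg7 as the highest (0.00041 and 0.00033 against 0.00175 and 0.00124) and Gzma and Klra8 at 0 in every sample. The 10 myeloid markers summed to 0.1715 and 0.1686 against 0.1964 and 0.2029. Most of that was Itgam (0.13460 to 0.15802, groups overlapping), while Lyz2 scored 0.02052 and 0.01124 in control and 0.04852 and 0.03292 in cKO samples (log2 fold change 1.39, limma adjusted p = 0.0961), and S100a9 was at 0 in all samples. The 5 dendritic cell markers summed to 0.00368 and 0.00357 against 0.00451 and 0.00479, with Clec9a at 0 in every sample. The highest of them, Xcr1, was lower in both cKO samples (0.00241 and 0.00229 against 0.00189 and 0.00190), and the second, Zbtb46, was higher in both (0.00083 and 0.00116 against 0.00223 and 0.00242). The 6 erythroid markers summed to 0.01338 and 0.00263 against 0.00254 and 0.00218, mainly Hbb-b1 and Hbb-b2 of control 1. Except for the erythroid list these sums, though not each of their markers, were higher in both cKO samples, in the direction of Sdc1, Cd27, Cd70, Tnfrsf9 and Tnfrsf1b, and their part in those values was not tested.

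Sdc1 lies on chromosome 12 of NCBIM37 (the assembly named mm9 by the UCSC browser), from 8778129 to 8800521 on the plus strand. The Sdc1 score was 0.00398 in control 1, 0.00418 in control 2, 0.00814 in cKO 1 and 0.00604 in cKO 2. Both cKO scores were higher than both control scores, and the 2 cKO samples differed more from each other than the 2 control samples did. The means were 0.00408 ± 0.000141 in control and 0.00709 ± 0.00148 in cKO samples (SD, n = 2), a ratio of 1.74. The log2 fold change was 0.77 (standard error 0.194, 95% confidence interval 0.29 to 1.25, limma adjusted p = 0.116). At an exon length of 3809 bases the scores correspond to about 270, 292, 618 and 403 reads, so the values were not at the floor of detection. Before adjustment the interval of the change in CD138 mRNA lay above 0. The score covers all exons together and says nothing of surface CD138. By flow cytometry after LPS culture of the same length, the study reports less CD138 on cKO than on control B cells. Its figure gives this as the frequency of CD138-positive cells, whereas the score is a bulk level over all cells. The direction is opposite to that of this mRNA score, and the difference between mRNA and surface protein was not tested.

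Other syndecans were present at other levels. Sdc4, a widely expressed syndecan, scored 0.05269 and 0.06046 in control and 0.07096 and 0.06141 in cKO samples (log2 fold change 0.23, limma adjusted p = 0.303). The level of Sdc1 relative to Sdc4 was 0.0755 and 0.0691 in control and 0.115 and 0.0984 in cKO samples. Sdcbp, which encodes the syndecan-binding protein syntenin, scored 0.03562 and 0.03736 against 0.04396 and 0.03838 (limma adjusted p = 0.358). Of 20 listed genes for the other syndecans, for syntenin and for building and cleaving heparan sulfate chains, 17 passed the filter and 0 were called, while 14 had a log2 fold change above 0 and 3 below. The median was 0.19, beside -0.010 over all genes tested.

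Genes that accompany plasma cell differentiation were called in the lower direction only. Of 15 listed plasma cell genes 14 passed the filter, and 4 were called lower in cKO samples and 0 higher. Over all genes 1.25% were called lower and 0.812% higher. Of the 4 called, Prdm1, Derl3 and Eaf2 are among the genes that the study itself picked from these samples for their lower scores, so this count is not independent evidence of its direction. Prdm1, which encodes the plasma cell regulator Blimp-1, fell from 0.00835 and 0.00458 to 0.00083 and 0.00075 (log2 fold change -2.82, standard error 0.432, limma adjusted p = 0.0429). Derl3, which takes part in degradation of proteins from the endoplasmic reticulum, fell from 0.00935 and 0.00573 to 0.00171 and 0.00216 (-1.88, limma adjusted p = 0.0485). Eaf2, a transcription elongation factor, fell from 0.01417 and 0.01049 to 0.00528 and 0.00553 (-1.16, limma adjusted p = 0.0383). Creld2, an endoplasmic reticulum stress gene, fell from 0.02234 and 0.01936 to 0.01225 and 0.01157 (-0.80, limma adjusted p = 0.0345). The median of the list was -0.48, with 9 genes below 0 and 5 above. The largest change above 0 was in Cxcr4, which was not called. It scored 0.04273 and 0.06175 in control and 0.12179 and 0.09294 in cKO samples (log2 fold change 1.05, limma adjusted p = 0.076). Whether Sdc1 differed from the listed plasma cell genes was not tested. With cKO 1 or cKO 2 left out, the spread of a gene within groups comes from the control samples alone. Such fits therefore cannot show whether these calls rest on both cKO samples. In the limma fit without filter the 4 genes had adjusted p-values of 0.203 to 0.219, and none of them was called without the variance trend either. Prdm1 and Derl3 also lost the call in limma without control 1 (adjusted p = 0.0848 and 0.0644) and with quantile normalization (adjusted p = 0.0525 and 0.0532).

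**Figure D2:**
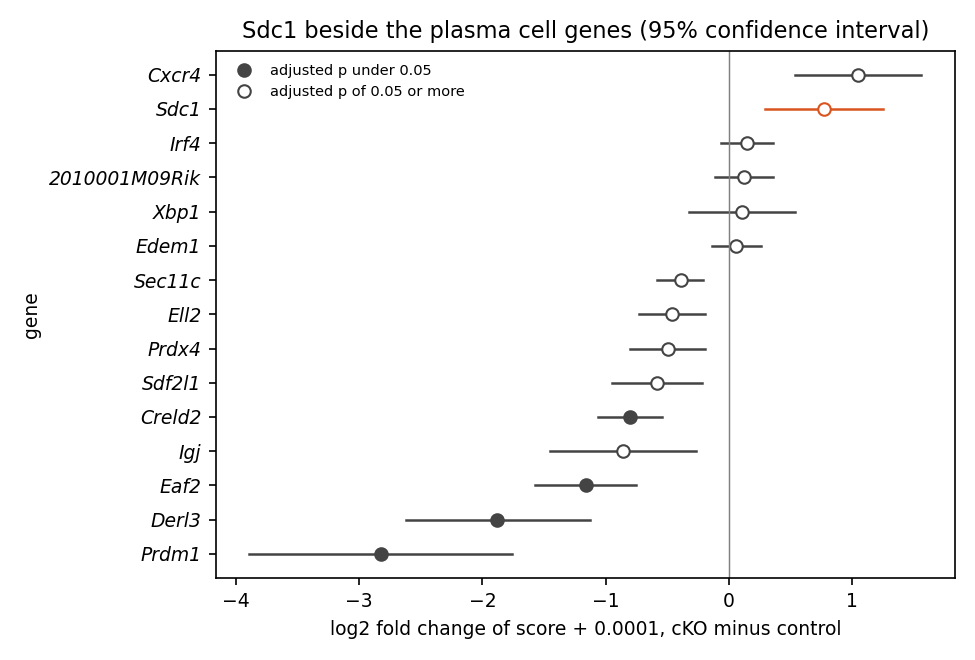
Log2 fold change of score + 0.0001 (cKO minus control) with the unadjusted 95% confidence interval for Sdc1 (orange) and the 14 plasma cell genes past the filter, from 2 control and 2 cKO samples. Filled points had a limma adjusted p under 0.05. Sdc1 sits at 0.77, Prdm1 at -2.82 and Derl3 at -1.88.

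Tnfrsf13c and Tnfrsf13b were the most abundant members. Tnfrsf13c, on the minus strand of chromosome 15 (82052174 to 82054790), scored 0.16436 in control 1, 0.16938 in control 2, 0.13593 in cKO 1 and 0.14633 in cKO 2. Both cKO values were under those of the controls, by a small margin. The mean went from 0.1669 ± 0.00355 to 0.1411 ± 0.00735 (SD, n = 2), a ratio of 0.846 (log2 fold change -0.24, 95% confidence interval -0.44 to -0.04, limma adjusted p = 0.176). Its mean over the 4 samples was higher than that of 97.6% of the genes above 0.

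Tnfrsf13b, on the plus strand of chromosome 11 (60940257 to 60962874), scored 0.16280 and 0.14041 in control and 0.09878 and 0.11066 in cKO samples. This was the largest difference in the lower direction among the members, with a ratio of means of 0.691 (0.1516 ± 0.0158 in control and 0.1047 ± 0.0084 in cKO samples, SD, n = 2). The log2 fold change was -0.53 (standard error 0.109, 95% confidence interval -0.80 to -0.26), and the limma adjusted p of 0.0793 was the smallest of any member. The call depended on the setting. Without control 2 the log2 fold change was -0.64 and the limma adjusted p 0.021, and when only the 1933 genes above 0.05 in a sample were tested the limma adjusted p was 0.0436. Without cKO 1 the limma adjusted p was 0.392 at a log2 fold change of -0.45. Control 2 was also the lower of the 2 control samples. The level of Tnfrsf13b relative to Tnfrsf13c was 0.991 in control 1, 0.829 in control 2, 0.727 in cKO 1 and 0.756 in cKO 2, so that the ratio of TACI to BAFF-R mRNA was below 1 in every sample and lower in both cKO samples. In bulk RNA, fewer cells with a transcript and less transcript per cell cannot be told apart.

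Tnfrsf17, on chromosome 16 (11313905 to 11320167), was at the floor. It scored 0.00021 in control 1, was listed at 0 in control 2, and scored 0.00012 and 0.00007 in cKO samples, which corresponds to 3, 0, 2 and 1 reads over 815 exon bases. The groups overlapped. Its fitted log2 fold change of 0.14 in the fit without filter had a 95% confidence interval of -1.58 to 1.85, and the ratio of means was 0.905, on the other side of no change. A difference was not detectable at this depth.

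Cd40, on the plus strand of chromosome 2 (164881127 to 164898448), scored 0.07632 in control 1, 0.06821 in control 2, 0.05235 in cKO 1 and 0.06358 in cKO 2. Both cKO values were under those of the controls, with cKO 2 close to control 2. The ratio of means was 0.802 (0.07226 ± 0.00573 to 0.05797 ± 0.00794, SD, n = 2). The log2 fold change was -0.32 (standard error 0.122, 95% confidence interval -0.62 to -0.02, limma adjusted p = 0.207), and was -0.46 without cKO 2 and -0.18 without cKO 1. Tnfrsf13b was 2.13, 2.06, 1.89 and 1.74 times the level of Cd40 in control 1, control 2, cKO 1 and cKO 2. The corresponding values of Tnfrsf13c were 2.15, 2.48, 2.6 and 2.3, which overlapped between the groups.

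CD27 is a costimulatory receptor and CD70 its only known ligand, which activated B cells can express. Cd27, on chromosome 6 (125182640 to 125187028), scored 0.00161 and 0.00136 in control and 0.00222 and 0.00304 in cKO samples, or about 67, 58, 103 and 124 reads. Cd70, on chromosome 17 (57285420 to 57289200), scored 0.00238 in both control samples, 0.00296 in cKO 1 and 0.00573 in cKO 2, or about 36, 37, 50 and 85 reads. Both genes were higher in both cKO samples than in both control samples, and for Cd70 most of the difference lay in cKO 2. The log2 fold change of Cd27 in the fit without filter was 0.77 (standard error 0.232, 95% confidence interval 0.13 to 1.42, limma adjusted p = 0.29). That of Cd70 was also 0.77 (standard error 0.367, 95% confidence interval -0.14 to 1.67, limma adjusted p = 0.283). Without cKO 2 it was 0.30, and without cKO 1 it was 1.23. The ratio of Cd27 to Cd70 was 0.676 and 0.571 in control and 0.75 and 0.531 in cKO samples, and the groups overlapped.

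Cd70 and Sdc1 had nearly equal fitted changes, the largest of the members past the filter. Their order depended on the setting: Sdc1 came first with a pseudocount of 0.001 (0.66 against 0.61 for Cd70), with quantile normalization (0.72 against 0.59), without control 2 (0.80 against 0.77) and without cKO 2 (0.98 against 0.30). Cd70, first in the fit to all samples, was taken for a search of like profiles. The genes whose centred log2 profiles over the 4 samples lay nearest to it were Nsun3, Map4k5, Nelf, Fam160a1 and 5730494N06Rik, at root mean square distances of 0.061, 0.107, 0.155, 0.164 and 0.168. Nsun3 is a methyltransferase of mitochondrial tRNA and Map4k5 a kinase of the stress-activated pathway. All of them had their highest score in cKO 2, for example 0.00897 for Nsun3 against 0.00421, 0.00405 and 0.00513 in control 1, control 2 and cKO 1. With 4 samples such likeness is a description of these libraries.

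Fas, the death receptor for Fas ligand, lies on chromosome 19 (34365149 to 34402260). Its score was 0.01290 in control 1, 0.01248 in control 2, 0.00962 in cKO 1 and 0.01174 in cKO 2. Both cKO values were under those of the controls, by little in cKO 2. The ratio of means was 0.842 (log2 fold change -0.25, 95% confidence interval -0.56 to 0.05, limma adjusted p = 0.291). It was -0.40 without cKO 2 and -0.11 without cKO 1.

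Tnfrsf9 (4-1BB, a costimulatory receptor) and Tnfrsf1b (TNF receptor 2, which binds TNF and lymphotoxin α) both lie on chromosome 4, at 150288671 to 150320211 and 144803366 to 144836773. Tnfrsf9 scored 0.00013 in both control samples and 0.00035 and 0.00024 in cKO samples, which corresponds to about 6, 6, 19 and 11 reads. The groups did not overlap, and so few reads leave wide counting error. Its log2 fold change without filter was 0.77 (95% confidence interval 0.06 to 1.47, limma adjusted p = 0.312). Tnfrsf1b scored 0.00834 and 0.00634 in control and 0.01015 and 0.00838 in cKO samples, so that control 1 and cKO 2 were almost equal. Its log2 fold change was 0.34 (95% confidence interval -0.10 to 0.77, limma adjusted p = 0.314). It was 0.53 without control 1, 0.14 without control 2 and 0.20 without cKO 1.

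**Figure D3:**
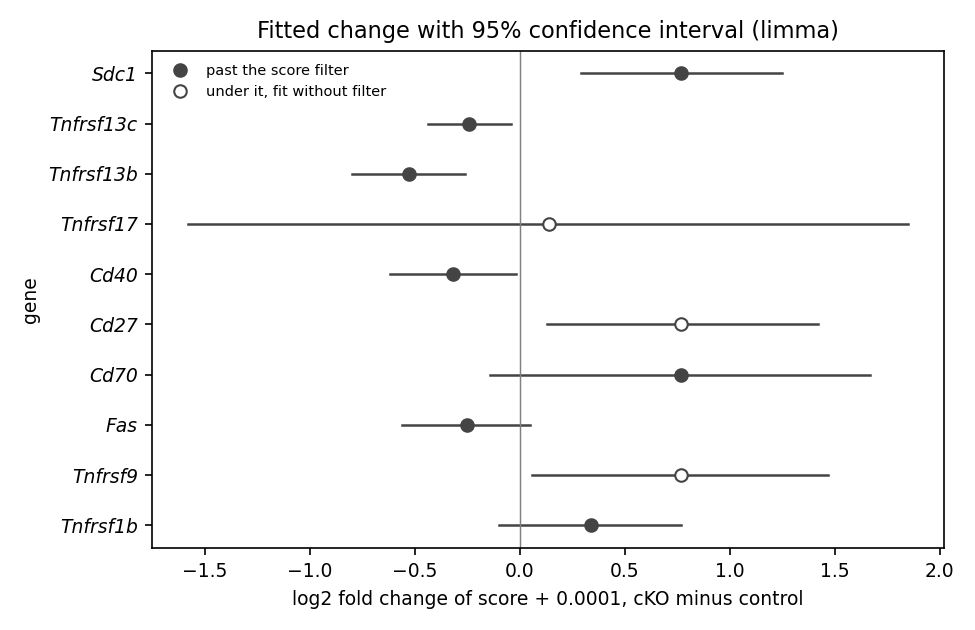
Log2 fold change of score + 0.0001 (cKO minus control) with the unadjusted 95% confidence interval from limma for the 10 genes, 2 control and 2 cKO samples. Filled points are the 7 genes past the filter and open points the 3 under it, from the fit without filter. The intervals of Sdc1, Cd27 and Tnfrsf9 lie above 0 and those of Tnfrsf13c, Tnfrsf13b and Cd40 below it, and none of the 10 passed after adjustment.

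Ordered by the mean score over the 4 samples, the members were Tnfrsf13c (0.154), Tnfrsf13b (0.1282), Cd40 (0.06512), Fas (0.01169), Tnfrsf1b (0.008302), Sdc1 (0.005585), Cd70 (0.003363), Cd27 (0.002058), Tnfrsf9 (0.0002125) and Tnfrsf17 (0.0001). The ranges over the 4 samples did not overlap between Tnfrsf13b and Cd40, between Cd40 and Fas, and between Cd27 and Tnfrsf9. All other neighbours overlapped. The members thus fell into BAFF-R, TACI and CD40 at high levels, Fas to CD27 at intermediate levels, and 4-1BB and BCMA near the floor.

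The ligands of these receptors were mostly low. Tnfsf13b (BAFF) scored 0.00019, 0.00045, 0.00031 and 0.00028 in control 1, control 2, cKO 1 and cKO 2. Tnfsf13 (APRIL) scored 0.00005 and 0.00004 in control and 0.00029 and 0.00014 in cKO samples. Cd40lg, expressed mainly by T cells, was listed at 0 in all 4 samples. Fasl scored 0.00003 and 0.00019 in control and 0.00061 and 0.00051 in cKO samples. The higher ligands were Tnfsf9 (4-1BB ligand), with 0.00943 and 0.01039 in control and 0.01315 and 0.01776 in cKO samples (log2 fold change 0.62, limma adjusted p = 0.118), and Tnf, with 0.02315 and 0.01981 against 0.01740 and 0.02046 (limma adjusted p = 0.426). Lta, which encodes lymphotoxin α, scored 0.01960 and 0.01528 against 0.00891 and 0.01257 (-0.70, limma adjusted p = 0.132). Ltb, its membrane partner lymphotoxin β, had the highest level of the listed ligands, 0.15100 to 0.19691, and the groups overlapped. The gene of the lymphotoxin β receptor, Ltbr, is not among the members. Of 17 listed ligands other than Cd70, 5 passed the filter and 0 were called, with a median log2 fold change of 0.17.

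**Figure D4:**
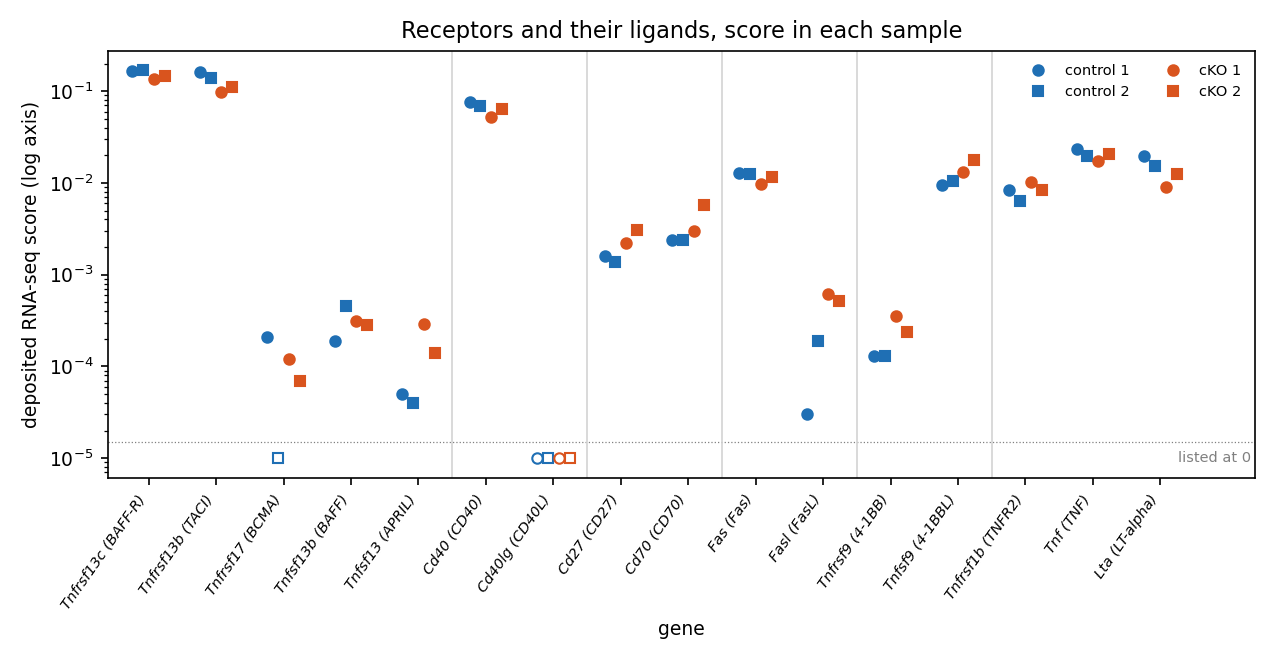
Deposited score (log axis) of receptors and ligands in each of the 4 samples, grouped by pair from the BAFF system on the left to the TNF system on the right. Open symbols mark a score listed at 0, which all 4 samples show for Cd40lg. BAFF-R, TACI and CD40 exceed their ligands in every sample, while the 4-1BB ligand exceeds its receptor.

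Of 20 other TNF receptor superfamily genes, 5 passed the filter and 0 were called (median log2 fold change 0.10, 3 above and 2 below 0). The highest were Tnfrsf18 (GITR), with 0.00769 and 0.00862 in control and 0.01354 and 0.01051 in cKO samples (limma adjusted p = 0.13), and Tnfrsf14 (HVEM), with 0.00935 and 0.01007 against 0.00966 and 0.00769 (limma adjusted p = 0.509). The 23 listed genes of the adaptors and kinases downstream all passed the filter. None was called, with 14 above and 9 below 0 and a median of 0.04. Traf1, an adaptor that NF-κB induces, scored 0.07591 and 0.07795 against 0.08689 and 0.07230. Nfkb2, the precursor of the non-canonical NF-κB subunit p52, scored 0.06618 and 0.07432 against 0.06268 and 0.06624 (limma adjusted p = 0.471).

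Surface receptors such as CD138, BCMA and TACI are also set by cleavage. Of 8 listed protease genes, Adam10, Adam17 and the γ-secretase subunits, 7 passed the filter and 0 were called, with 6 above and 1 below 0 (median 0.16). Psenen scored 0.05635 and 0.05297 in control and 0.05400 and 0.05016 in cKO samples, and Psen2 scored 0.03130 and 0.03921 against 0.07437 and 0.05248 (log2 fold change 0.83, limma adjusted p = 0.101).

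Of 12 genes of mature B cell identity, all past the filter, 1 was called lower and 0 higher, with a median of -0.19. This was Fcer2a, which encodes CD23, a marker of follicular B cells. It fell from 0.30046 and 0.31280 to 0.16070 and 0.19952 (log2 fold change -0.78, limma adjusted p = 0.0428). The call was lost without filter (limma adjusted p = 0.219), without the variance trend (0.0818), without cKO 1 (0.192) and without cKO 2 (0.0669). The B cell markers were high in all 4 samples, with summed scores of 2.543 and 2.821 in control and 2.407 and 2.386 in cKO samples. Of these 8 markers Cd79a was called, at 0.66695 and 0.74312 against 0.41541 and 0.40714 (-0.78, limma adjusted p = 0.0294, and 0.203 without filter). The Cre allele of cKO mice sits in this gene.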

How the data were processed

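Poly(A) RNA of LPS-stimulated splenic B cells (2 control and 2 cKO samples) was sequenced by the authors as 38-base reads and mapped to mm9 with TopHat. The submitters' processing notes also name CASAVA 1.8, Bowtie, SAMtools and bedtools. Reads of rRNA and tRNA and of low base quality were removed. The authors deposited 1 score per gene and sample. How the score was made from mapped reads, and the gene annotation, are not given in the sources used here, so short or shared exons could shift a level.

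Scores of 30041 genes were joined by Entrez identifier. log2(score + 0.0001) was fitted by limma (version 3.58.1, R 4.3.3) with a trended prior variance and no block for the 9727 genes that reached 0.005 in a sample, a lower limit than the 0.05 stated in the study. Benjamini-Hochberg adjustment was used, with a threshold of 0.05. The code was tested on simulated data. Tables used pandas 2.3.3 and numpy 2.4.6 under Python 3.11.15, and plots matplotlib 3.10.9. Exon lengths came from the GENCODE annotation of NCBIM37, and promoters from RefSeq. The step of low scores was sought in single-transcript genes.

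The members and lists were chosen with earlier results of these data known, and support nothing independently. Named were all members, the called genes of each list (otherwise its 2 highest) and the 5 nearest profiles to Cd70. Ligands of members, H2-Ea-ps, Thy1, Cd28, Cd3d, Cd3e, Cd3g, Cxcr4 and markers at 0 were named after their values were seen. So were the protease genes named without values. Depth per sample is inferred, and intervals cover only the spread between samples. No columns were left out, and the study's flow cytometry, RT-PCR and ChIP were not analysed here.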

Additional observations from a re-analysis of the deposited data

How the results depend on the processing

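All 13 alternatives kept the direction of every member change that they could give. For most of them this was fixed in advance. The groups did not overlap in the 7 members past the filter. Leaving out a sample, or changing the pseudocount, filter, trend or block, could therefore not reverse a direction. Only the rescalings (equal medians and quantile normalization) could have done so. Of 87 such values, 84 kept their side of the threshold and 3 gained it, all for Tnfrsf13b: limma adjusted p 0.0436 with the filter above 0.05, 0.0347 with the crossed replicate block and 0.021 without control 2. The cause was not tested, except that fewer genes were tested with the higher filter. Members called therefore numbered 0 or 1 in the leave-one-out fits, 1 with the filter above 0.05 and 1 with the crossed block.

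Genes called lower and higher over the whole table were 122 and 79. In the limma fit with no filter both counts were 0 (1538 lower and 1665 higher before adjustment, p under 0.05). They were 22 and 11 without the variance trend, 88 and 35 with the filter above 0.05, and between 0 and 391 and between 0 and 439 with a sample left out. The listed pathway genes called (5) became 0 with no filter, 3 with the filter above 0.05, 0 without the trend, 3 with quantile normalization and 0 to 16 with a sample left out. Of the 5, only Fcer2a scored above 0.05 in a sample. Prdm1, Derl3, Eaf2 and Creld2 were not tested with that filter, so the 3 called there include genes outside the 5. With a sample left out, the lone sample of a group is assumed to vary like the other group. The largest counts were without control 2 (391 and 439), and the 0 counts without cKO 1 or cKO 2.

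Same-numbered samples did not deviate together (Pearson correlation -0.145, Spearman -0.291 over 9727 genes). With 1 deviation per group this cannot decide whether they share more than a number. With that number as a replicate block, 180 genes were lower and 177 higher, with 0 members and 11 listed genes called. With the crossed replicate block, chosen after seeing the data, the counts were 230, 212, 1 and 11. The inferred depth limits Tnfrsf17, Tnfrsf9, Cd70 and Cd27, which rest on 0 to 124 reads.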
